A study of Mus musculus with 40 samples.

Results

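The immediate-early genes examined here are Fos, Fosb, Jun, Junb, Egr1, Egr2, Atf3, Ier2, Nr4a1 and Dusp1. They were found by symbol in the count tables of mouse aorta and kidney, as 10 of 55335 genes listed for aorta and 10 of 55382 listed for kidney. All 10 passed the filter on low counts in both tissues, where 15122 and 15943 genes were tested. Whole aortas and kidneys came from C57BL/6 mice in 4 groups with 5 libraries each per tissue, 40 libraries in all. EC-EGFR-KO mice carried floxed EGFR alleles (EGFR flox/flox) and Cre recombinase under the Tie2 (Tek) promoter, which removes exon 1 of the EGF receptor gene in endothelial cells. The controls, EC-EGFR-WT, carried the same Tie2-Cre but no loxP sites, so Cre was present in every group. From an age of 6 weeks, mice received a high fat diet (HFD, with 60% of energy from fat) or a standard fat diet (SFD, with 10%) for 18 weeks. The Tie2 promoter is also active in blood-forming cells, so the deletion need not be limited to endothelium. The mice were killed by cervical dislocation under isoflurane, and the organs were snap frozen.

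Immediate-early genes are transcribed within minutes of a stimulus such as a growth factor, stretch or injury, from factors already present in the cell, and their mRNAs are short-lived. Fos, Fosb, Jun and Junb encode subunits of the AP-1 transcription factor, Egr1 and Egr2 encode zinc finger transcription factors, and Atf3 encodes a stress-induced factor of the ATF/CREB family. Ier2 encodes a nuclear protein, Nr4a1 an orphan nuclear receptor, and Dusp1 a phosphatase that inactivates MAP kinases. In the vessel wall and in the kidney they are known to answer EGF receptor signalling, mechanical load and reduced blood flow, and handling of a tissue can induce them.

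The sites through which such stimuli act are short. Serum response factor binds CArG boxes and CREB binds the cAMP response element (CRE), and RefSeq promoter windows (GRCm38.p6, 250 bases before to 50 after a start) were searched for them on both strands. Windows were given for 8 of the 10 genes, 1 each except for Egr2 with 5. TGACG, the CRE half-site, occurred in windows of 7 of these 8 genes, all but Jun, and in 20.8% of 32851 windows. The full CRE, TGACGTCA, which holds the half-site on both strands, occurred only in Dusp1 of the 8 (1.79% of windows). The CArG box occurred only in Egr2 (1.63% of windows). GCGGGGGCG, an EGR site, was found in Fosb and Nr4a1 (2.91% of windows), and TGANTCA, an AP-1 site, in none of the 8 (7.81% of windows). A match is a description of the letters and not a bound site. The stretches before the start are shown for 4 genes whose levels the results turn on, with capitals marking the half-site or its complement, the full CRE of Dusp1 and the CArG box of Egr2. They lie at chr12:85473710-85473889 (plus strand) for Fos, chr15:101266606-101266845 (plus strand) for Nr4a1, chr17:26508473-26508672 (minus strand) for Dusp1 and chr10:67537689-67537868 (plus strand) for Egr2.
Fos: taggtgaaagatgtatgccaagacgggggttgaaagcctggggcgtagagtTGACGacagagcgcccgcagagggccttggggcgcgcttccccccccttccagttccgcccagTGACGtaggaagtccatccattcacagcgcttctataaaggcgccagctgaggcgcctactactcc
Nr4a1: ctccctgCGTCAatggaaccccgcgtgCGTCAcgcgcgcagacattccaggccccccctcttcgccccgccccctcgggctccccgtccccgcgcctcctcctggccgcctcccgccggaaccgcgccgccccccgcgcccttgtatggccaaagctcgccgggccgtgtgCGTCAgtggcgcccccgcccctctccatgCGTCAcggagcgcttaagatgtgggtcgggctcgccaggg
Dusp1: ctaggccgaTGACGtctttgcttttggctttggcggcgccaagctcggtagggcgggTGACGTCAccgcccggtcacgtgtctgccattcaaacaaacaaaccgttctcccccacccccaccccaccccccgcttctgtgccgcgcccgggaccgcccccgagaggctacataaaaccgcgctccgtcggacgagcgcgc
Egr2: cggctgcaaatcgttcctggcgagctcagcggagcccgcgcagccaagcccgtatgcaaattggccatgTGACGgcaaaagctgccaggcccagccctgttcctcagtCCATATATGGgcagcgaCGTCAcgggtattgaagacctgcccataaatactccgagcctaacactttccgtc

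In GENCODE M21 (GRCm38) the genes lie on different chromosomes except for a pair on chromosome 8. Fos is at chr12:85473890-85477273 (plus strand), Fosb at chr7:19302696-19310051 (minus), Jun at chr4:95049034-95052222 (minus) and Junb at chr8:84974484-84978718 (minus). Egr1 is at chr18:34859823-34864984 (plus), Egr2 at chr10:67535475-67542188 (plus) and Atf3 at chr1:191170296-191218039 (minus). Ier2 is at chr8:84661331-84662852 (minus), Nr4a1 at chr15:101254269-101274795 (plus) and Dusp1 at chr17:26505590-26562128 (minus). Junb overlaps Prdx2, Jun overlaps the antisense gene Junos, Atf3 overlaps Gm24748, and the long annotated span of Dusp1 overlaps 4 genes, Ergic1 among them. The strand setting of the counting is not given in the sources used here, so reads in these overlaps cannot be assigned with certainty.

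Total counts per library ranged from 1.75e+07 to 3.65e+07 in aortas and from 1.96e+07 to 4.88e+07 in kidneys, and values are given as FPM, the fragments of a gene per 1e+06 fragments of a library after TMM normalization. The aortas R-1 (WT SFD) and R-12 (KO SFD) differed by less than the sampling noise, although their labels differ in genotype (median chi-square over genes 0.0277, against 0.455 for sampling noise and 1.60 for the next closest pair of aortas). The same held for the kidneys a1 (KO HFD) and a12 (WT HFD) (0.0269, against 1.62). Each pair was counted once in correlations, and group comparisons were repeated without both libraries. The labels name no batch and do not link the aorta and the kidney of one animal. Smooth muscle markers in aorta (Acta2, on average 21786 FPM) and proximal tubule markers in kidney (Kap, 21955 FPM) were abundant, as the labelled organs have. Every gene of chromosomes 9, X, Y and MT was at 0 in every library, which leaves out Csrnp1, Elk1, Tagln, Cnn1, Timp1, Alas2 and the Cd3 genes of the lists used below, and Cdh5 and Acta1 were also at 0. Egfr itself, counted over the whole gene in whole tissue and so with no separate value for exon 1, had group means of 39.6 to 44.5 FPM in aortas and 40.5 to 56.3 FPM in kidneys. In aortas the log2 difference of KO and WT was 0.15 ± 0.15 (SE) under SFD and 0.13 ± 0.15 under HFD, and in kidneys -0.09 ± 0.17 and 0.06 ± 0.17 (adjusted p = 0.916 to 1.00, edgeR quasi-likelihood test with Benjamini-Hochberg adjustment over all genes tested).

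Levels differed widely among the 10 genes. Per kilobase of annotated exons, the median aorta level was highest for Fos (197 FPM per kb), followed by Dusp1 (143), Jun (98.7), Junb (78.2), Nr4a1 (78.1), Ier2 (65.1) and Egr1 (62.3). Atf3 (21.9), Fosb (16.6) and Egr2 (0.626) were lower. In kidney the median level was highest for Dusp1 (18.2 FPM per kb), followed by Junb (9.65), Jun (9.02), Ier2 (8.55), Egr1 (2.30) and Nr4a1 (1.34). Fos (0.787), Atf3 (0.728), Egr2 (0.0798) and Fosb (0.0527) were lowest there. Within each tissue, neighbours in these orders such as Junb and Nr4a1 in aorta, or Fos and Atf3 in kidney, lay closer together than the spread of either gene over libraries. The tissues were normalized separately, and no test was made between them.

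In kidneys, 3 of the 20 libraries stood far above the rest for all 10 genes: a17 (WT SFD) and a8 and a9 (KO SFD). Fos was 0.333 FPM in a16, 76.1 in a17, 0.7 in a18, 1.48 in a19 and 1.86 in a20 of the WT SFD kidneys. In KO SFD kidneys it was 0.355 FPM in a6, 1.44 in a7, 83.4 in a8, 91.1 in a9 and 1.84 in a10. Both groups therefore hold very high and very low libraries, and no SFD kidney lay between 1.86 and 76.1 FPM. Fos in WT HFD kidneys was 1.64 FPM in a11, 0.884 in a12, 4.46 in a13, 7.06 in a14 and 2.96 in a15. In KO HFD kidneys it was 0.864 FPM in a1, 1.4 in a2, 4.46 in a3, 2.28 in a4 and 4.75 in a5. The highest HFD kidney, a14, stayed far below the 3 high libraries.

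Egr1 had the largest ratio of means between the 3 libraries and the other 17, at 67.2. It reached 748 FPM in a17, 839 in a8 and 608 in a9, while the other 17 kidneys ranged from 1.63 to 32.6 FPM with a median of 10.2. The lowest of the 3 was 18.7 times the highest of the other 17 kidneys. The same ratio was 19.3 for Nr4a1, 12.5 for Fosb, 10.9 for Egr2, 10.8 for Fos and 10.2 for Ier2. It was smaller for Junb (8.50), Atf3 (6.60), Jun (5.06) and Dusp1 (2.11), so the phosphatase Dusp1, which had the highest median level per kilobase of the 10 in kidney, had the narrowest gap. The 3 kidneys were not alike in every gene. Nr4a1 was nearly equal in them (189, 187 and 186 FPM in a17, a8 and a9), whereas Atf3 was 49.2, 15.9 and 117 FPM and Fosb 12.2, 6.33 and 26.0 FPM in the same order. Egr2 was highest in a17 (23.1 FPM) and lower in a8 (10.5) and a9 (16.9).

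**Figure D1:**
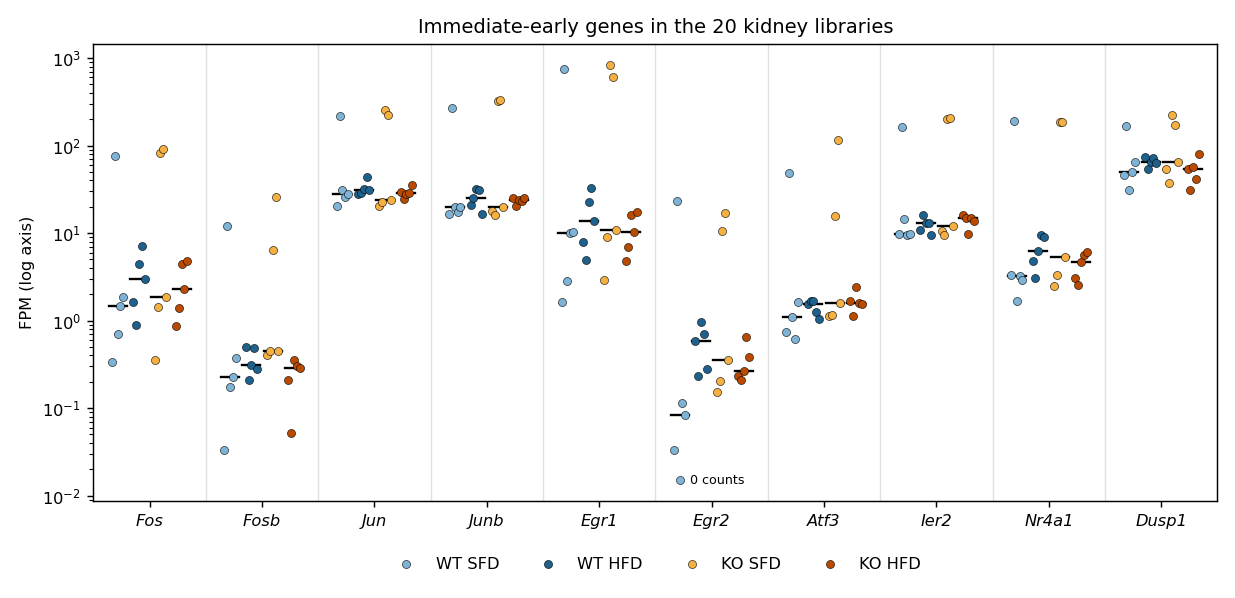
FPM (log axis) of the 10 genes in the 20 kidney libraries, with 1 point per library coloured by group and a black bar at each group's median; the Egr2 library with 0 counts is drawn at the bottom and marked. The WT SFD library a17 and the KO SFD libraries a8 and a9 lie above all other kidneys for every gene, with Egr1 at 608 to 839 FPM against at most 32.6.

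With these 3 libraries, most of the 10 genes were among the most variable of the kidney. The within-group SD of log2 FPM was 2.64 for Egr1, the highest of 15943 genes tested, 2.43 for Fos (rank 3), 2.32 for Egr2 (rank 4) and 2.13 for Nr4a1 (rank 8). Atf3 (1.96), Fosb (1.91), Ier2 (1.48), Junb (1.46) and Jun (1.17) ranked 14 to 256. Dusp1 was lowest of the 10 at 0.77, above 94.9% of genes. The median gene had a within-group SD of 0.25 in kidney. The remaining 17 kidneys rested on few reads for some members: their counts were 1 to 13 for Fosb, 0 to 25 for Egr2 and 7 to 191 for Fos, but 350 to 1192 for Junb and 597 to 2549 for Dusp1. Within the 17, Fos still ranged over 21.2-fold and Nr4a1 over 5.79-fold, while Ier2 ranged over 1.71-fold and Junb over 1.96-fold.

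In aortas the levels formed a graded series and not 2 separate sets. Fos was 248 FPM in R-1, 63.6 in R-2, 170 in R-3, 388 in R-4 and 547 in R-5 of the WT SFD aortas. In WT HFD aortas it was 301 FPM in R-6, 469 in R-7, 203 in R-8, 872 in R-9 and 180 in R-10. The 2 WT groups overlap, and R-2 is the lowest of all 20 aortas. In KO SFD aortas Fos was 755 FPM in R-11, 249 in R-12, 658 in R-13, 499 in R-14 and 459 in R-15. In KO HFD aortas it was 237 FPM in R-16, 988 in R-17, 1481 in R-18, 4129 in R-19 and 500 in R-20. The KO HFD group thus runs from 237 FPM to the highest value of all aortas, and it overlaps every other group. The WT aortas R-2, R-3, R-8 and R-10 lie below all KO HFD aortas. All 10 genes were highest in R-19 and lowest in R-2, and all 10 were among the 3 highest in R-18 and R-19.

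The range over aortas was 64.9-fold for Fos, 477-fold for Fosb (4.48 to 2138 FPM) and 106-fold for Atf3 (7.60 to 807 FPM). It was 47.0-fold for Nr4a1, 29.5-fold for Junb and 22.2-fold for Egr1, and between 12.1-fold and 15.8-fold for Egr2, Dusp1, Ier2 and Jun. The within-group SD of log2 FPM ran from 0.56 for Egr2, above 77.4% of the 15122 genes tested, to 1.61 for Fosb, above 99.6%. The median gene had an SD of 0.33 in aorta. Egr2 was the least variable of the 10 in aorta and the third most variable of the 10 in kidney.

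**Figure D2:**
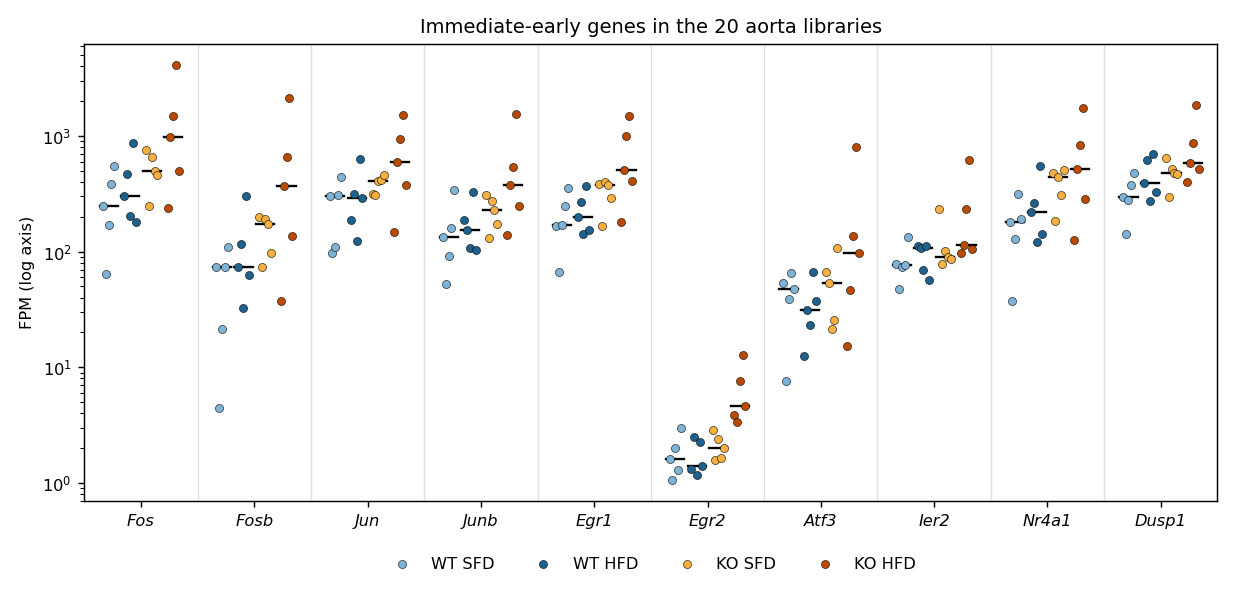
FPM (log axis) of the 10 genes in the 20 aorta libraries, with 1 point per library coloured by group and a black bar at each group's median. Levels form a graded series, with R-19 of the KO HFD group highest for every gene (Fos 4129 FPM) and R-2 of the WT SFD group lowest (Fos 63.6 FPM).

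Markers of other cells and states were read from lists in the same libraries. In the 3 high kidneys the summed level of macrophage and neutrophil markers was 85.4 to 95.4 FPM, against 55.1 to 75.9 FPM in the other 17. Of its 6 genes, Csf1r, S100a8 and S100a9 were above all other kidneys. S100a9, a neutrophil protein, was 6.91 to 10.3 FPM in the 3 and at most 1.45 FPM elsewhere. Adgre1 and Cd68, markers of macrophages as is Csf1r, were within the range of the others, and Itgam was not above all of them. Summed smooth muscle markers were 110 to 114 FPM in the 3 high kidneys and 71.6 to 94.1 FPM in the other 17, but only 1 of the 3 markers tested was above all other kidneys. The summed levels of heat shock, hypoxia, tubular injury, clock, red blood cell, lymphoid, adipocyte, skeletal muscle, fibroblast, proximal tubule, thick ascending limb and podocyte genes lay within or overlapped the range of the others, as did endothelial genes. Of the transcription factors and kinases upstream of the immediate-early genes, 1 of 11 was above all other kidneys, namely Srf (39.7 to 74.0 FPM against at most 28.1 FPM), which encodes serum response factor and is itself inducible. The part of these cells and of sampling in the high levels was not tested. In whole tissue, more cells of a type and more RNA per cell cannot be told apart.

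In aortas the libraries R-18 and R-19 had summed endothelial markers of 1539 and 1508 FPM, within a range of 267 to 1749 FPM over the other 18. R-3 and R-8, where Fos was 170 and 203 FPM, had the lowest endothelial sums (267 and 324 FPM), but R-2, lowest in all 10 genes, had 699 FPM and R-11 with 755 FPM of Fos had 599 FPM. Across the 19 independent aortas Pearson's r of Fos with Pecam1, an endothelial adhesion molecule, was 0.609 (rho = 0.614, adjusted p = 0.219 over all genes, permutation test). Summed red blood cell genes were 417 to 4482 FPM in R-18 and R-19 and 1787 to 80124 FPM in the others. No other list had a summed level above all other aortas in both libraries, apart from the early response genes described next. The part of these cells in the result was not tested.

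A list of further early response genes was read beside the 10 (41 found, 37 tested in each tissue). In the 3 kidneys, 33 of the 37 lay above all other kidneys, while 2.30% of the 15943 genes tested did so. Klf2, Klf4, Ccn2 and Tiparp were the exceptions. Ccn1, a matricellular protein, was 271 to 578 FPM in the 3 and at most 47.4 FPM in the others, Rhob, a small GTPase, 154 to 224 against at most 84.5 FPM, and Errfi1, a feedback inhibitor of the EGF receptor, 1010 to 1398 against at most 806 FPM. In R-18 and R-19, 16 of the 37 lay above all other aortas, while 0.727% of 15122 genes did. Because these libraries were singled out by the immediate-early genes, the counts are a description. The counts of kidney and aorta are not alike, since they rest on different numbers of libraries and different shares of all genes, and no test was made between the tissues.

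**Figure D3:**
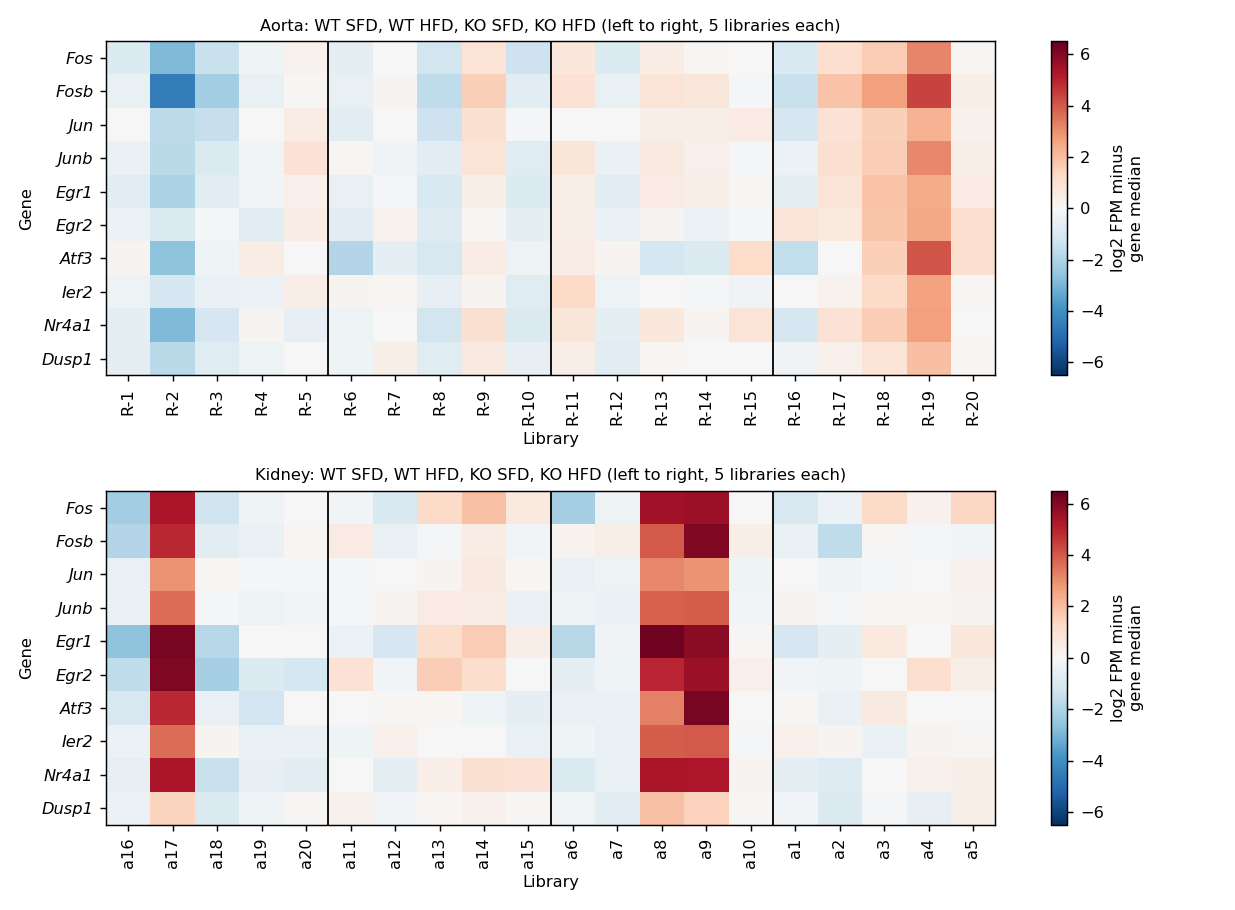
log2 FPM of each gene minus its median over the 20 libraries of a tissue, with 1 column per library, black lines between the 4 groups, red above and blue below the median. In kidney, a17, a8 and a9 are red for all 10 genes and the other 17 are paler, with Fos lowest in a16 and a6, while in aorta the colours grade from R-2 to R-19.

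How tightly the genes moved together was measured by the correlation of each with Fos on log2 FPM. Across 19 independent aortas, all 9 other genes were called after adjustment over 15121 genes (permutation test, 2-sided, 100000 resamples, smallest possible p 1e-05), where 0.443% of genes were called. Pearson's r was 0.979 for Fosb, 0.978 for Egr1, 0.977 for Junb, 0.972 for Dusp1 and 0.963 for Nr4a1 (rho = 0.981, 0.946, 0.972, 0.940 and 0.900, each with adjusted p = 0.00605 for r from the permutation test). Of all 15121 genes, the 4 with the highest r were Fosb, Egr1, Junb and Dusp1. Jun (r = 0.923, rho = 0.912) and Ier2 (r = 0.887, rho = 0.877) followed. Egr2 (r = 0.803, rho = 0.739) and Atf3 (r = 0.791, rho = 0.619) were loosest, and neither was called by rho (adjusted p = 0.133 and 0.276, permutation test), by which 0.139% of genes were called. Without R-19 and R-2, the aortas farthest from the median of Fos, r was 0.505 for Atf3, 0.639 for Egr2, 0.780 for Ier2 and 0.872 to 0.956 for the other 6, and only those 6 of the 9 were called (0.106% of genes). Over all 45 pairs of the 10 genes, r ran from 0.702 (Egr2 and Nr4a1) to 0.979 with a median of 0.887, and from 0.352 to 0.956 without these 2 libraries. With each library centred on its group mean, 8 of the 9 were called (0.284% of genes).

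In kidney no r is given over all libraries, since the 3 high ones form a separate set. Across the other 16 independent kidneys Egr1 followed Fos most closely (r = 0.972, rho = 0.968, adjusted p = 0.00664, permutation test). It ranked first of 15942 genes. Nr4a1 (r = 0.778), Jun (r = 0.773) and Egr2 (r = 0.708) were also called, 4 of 9 in all, where 7.65% of genes were called. The rho of these was 0.803, 0.697 and 0.738. Junb (r = 0.646, adjusted p = 0.0652), Dusp1 (r = 0.527, adjusted p = 0.150), Atf3 (r = 0.4995, adjusted p = 0.171) and Fosb (r = 0.463, adjusted p = 0.207, permutation test for each) were not. For Ier2 r was 0.0800. Its range over the 17 kidneys other than the high ones was narrow (1.71-fold), as was that of Junb (1.96-fold), and the part of this in r was not tested. Without a16 and a6, the kidneys farthest from the median of Fos, only Egr1 was called (r = 0.960, with 0.0251% of genes called). Over these 14 kidneys r was higher than before for Nr4a1 (0.833) and Dusp1 (0.646). It was lower for Egr2 (0.672), Jun (0.619), Junb (0.569), Fosb (0.410), Atf3 (0.332) and Ier2 (-0.154). Of all genes, 27.7% had an unadjusted p under 0.05, against 29.0% over 16 kidneys (permutation test). Across the 16 independent kidneys, pairs ran from -0.207 (Ier2 and Dusp1) to 0.972 with a median of 0.513 over 45, against 0.887 in aorta. The difference between the tissues was not tested, nor was the part of the low counts of Fosb and Egr2 in these kidneys.

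**Figure D4:**
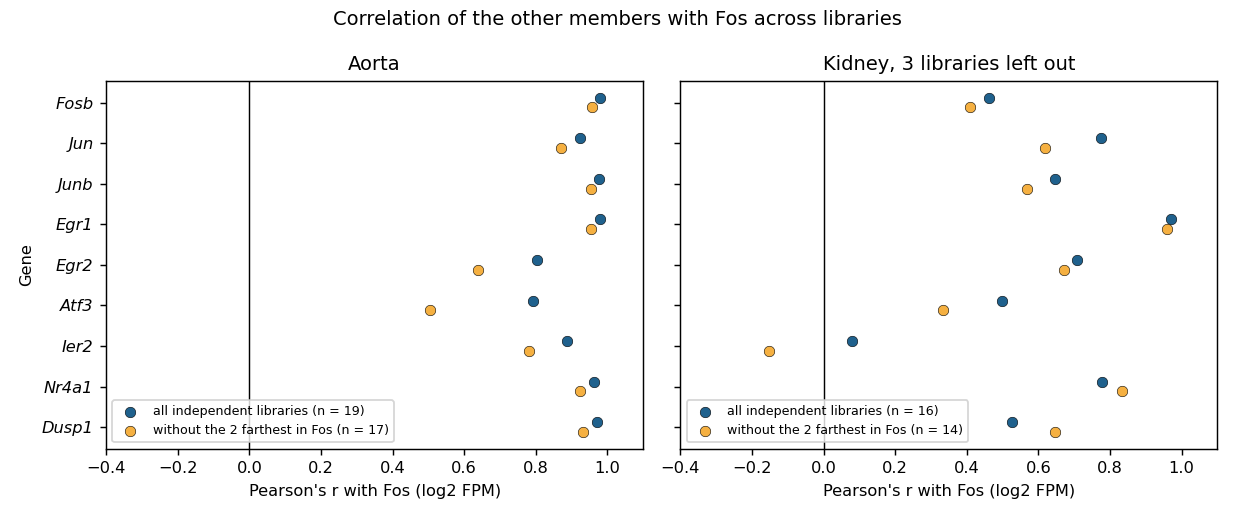
Pearson's r of each gene with Fos on log2 FPM across libraries, in aorta (19 independent libraries) and in kidney (16, without a8, a9 and a17), each also without the 2 libraries farthest from the median of Fos. In aorta r is at least 0.791 for all 9 genes with all 19 libraries, while in kidney it runs from 0.0800 for Ier2 to 0.972 for Egr1.

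By the mean of the 10 standardized genes, the 10 most similar genes in aorta were Btg2, Zfp36, Ppp1r15a, Socs3, Klf4, Ptgs2, Sik1, Dusp6, Plk3 and Klf2, with r from 0.902 to 0.979 over 19 libraries. Btg2 encodes an antiproliferative factor, Zfp36 a protein that destabilizes mRNAs, and Socs3 an inhibitor of cytokine signalling. Btg2 ran from 69.1 to 1530 FPM and Socs3 from 6.18 to 587 FPM. In kidney they were Btg2, Zfp36, Nfkbiz, Mcl1, Il1b, Cebpd, Rhob, Midn, Plk3 and Trib1. That ranking rests on the 3 high libraries, and without them r over 16 kidneys was 0.793 for Btg2, 0.734 for Nfkbiz, 0.706 for Il1b, 0.695 for Rhob and 0.191 to 0.525 for the other 6. Btg2 ran from 12.0 to 474 FPM in kidney and Il1b, which encodes interleukin-1 beta, from 0.632 to 66.8 FPM.

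The comparison of KO with WT under HFD asks whether loss of the endothelial receptor changes the genes in mice on the fat-rich diet. In aortas all 10 were higher on average in KO, but none passed the adjusted threshold. By edgeR 0 of 15122 genes were called (0%), while 884 had an unadjusted p under 0.05 (5.85%), 422 of them higher in KO (2.79%). All 10 immediate-early genes were among these 422. Egr2 in WT HFD aortas was 1.31 FPM in R-6, 2.47 in R-7, 1.17 in R-8, 2.24 in R-9 and 1.40 in R-10. In KO HFD aortas it was 3.88 FPM in R-16, 3.36 in R-17, 7.58 in R-18, 12.8 in R-19 and 4.59 in R-20. Every KO library was above every WT library, as was so for 0.337% of all genes. The log2 fold change of Egr2 was 1.90 ± 0.37 (SE, n = 5 and 5), its unadjusted p of 5.6e-05 ranked 4 of 15122 genes, and its adjusted p was 0.212 by edgeR. The DESeq2 Wald test called Egr2 (adjusted p = 0.00099, with 25 genes or 0.166% called in all) and none of the other 9.

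For the other 9 genes the KO HFD and WT HFD aortas overlapped. The log2 fold changes were 2.69 ± 0.82 for Atf3, 2.51 ± 0.88 for Fosb, 1.86 ± 0.66 for Fos, 1.70 ± 0.56 for Junb and 1.66 ± 0.48 for Egr1. They were 1.44 ± 0.60 for Nr4a1, 1.36 ± 0.46 for Ier2, 1.22 ± 0.52 for Jun and 0.86 ± 0.39 for Dusp1 (adjusted p = 0.510 to 0.822, edgeR). R-18 and R-19 carried most of these differences. Without them the median over the 10 genes fell from 1.68 to 0.51, and Egr2 had the largest at 1.20. Of the 37 further early response genes, 36 were higher on average in KO and 20 had an unadjusted p under 0.05, with a median log2 fold change of 0.72 where the median of all genes was 0.01. The smallest p among them was that of Myc (1.32 ± 0.28) and the largest fold change that of Socs3 (3.11 ± 0.75). Endothelial markers had a median of 0.42 and smooth muscle markers of -0.09 in the same comparison, none with an unadjusted p under 0.05. Macrophage and neutrophil markers had a median of 0.73, with 4 of 6 higher at an unadjusted p under 0.05 (2.79% of all genes, edgeR). Lymphoid markers had a median of 2.00, with 1 of 4 at an unadjusted p under 0.05, and adipocyte markers of -0.57. The part of these cells in the differences was not tested.

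Under SFD, KO aortas also had the higher mean for all 10 genes, with log2 fold changes from 0.23 (Egr2) to 1.37 (Fosb), but no gene had an unadjusted p under 0.05 (2.28% of all genes did). The largest after Fosb was Nr4a1 (1.17 ± 0.60, unadjusted p = 0.0635). By edgeR and by DESeq2, 0 genes were called, while 345 had an unadjusted p under 0.05 by edgeR. These groups include the near-identical R-1 and R-12, and without both the median over the 10 genes rose from 0.60 to 0.73. Adipocyte markers had a median of -1.41 in this comparison, with 5 of 6 lower at an unadjusted p under 0.05 (edgeR). Macrophage and neutrophil markers had a median of 0.30, with 2 of 6 higher at such a p. Endothelial markers had a median of 0.53 and lymphoid markers of 2.52, none with such a p. The part of these cells was not tested.

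HFD against SFD in KO aortas shares the KO HFD libraries with the comparison above. Egr2 was 2.88 FPM in R-11, 1.58 in R-12, 2.40 in R-13, 1.64 in R-14 and 2.02 in R-15 of the KO SFD aortas, all below the KO HFD aortas (0.337% of genes). Its log2 fold change was 1.62 ± 0.36 (adjusted p = 0.987 by edgeR, 0.0399 by the DESeq2 Wald test, which called 0.0266% of genes). All 10 were higher on average under HFD, from 0.81 for Dusp1 to 2.19 for Fosb, and 8 of 10 had an unadjusted p under 0.05 (4.56% of all genes, 1.74% higher), the exceptions being Jun and Nr4a1. Without R-18 and R-19 the median over the 10 fell from 1.25 to 0.11, and Jun, Atf3, Ier2 and Nr4a1 were below 0. In WT aortas, HFD gave log2 fold changes from -0.32 (Atf3) to 1.05 (Fosb), with no unadjusted p under 0.05 (2.61% of all genes), and 0.0132% of genes were called. The interaction, which tests whether the diet effect differs between genotypes, was positive for all 10, and 2 had an unadjusted p under 0.05 (0.840% of all genes). These were Egr2 (1.67 ± 0.52, unadjusted p = 0.00427, rank 4) and Atf3 (2.33 ± 1.11, unadjusted p = 0.0491), both with adjusted p = 1.00 by edgeR. By edgeR and by DESeq2, 0 genes were called in the interaction, and 127 had an unadjusted p under 0.05 by edgeR.

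**Figure D5:**
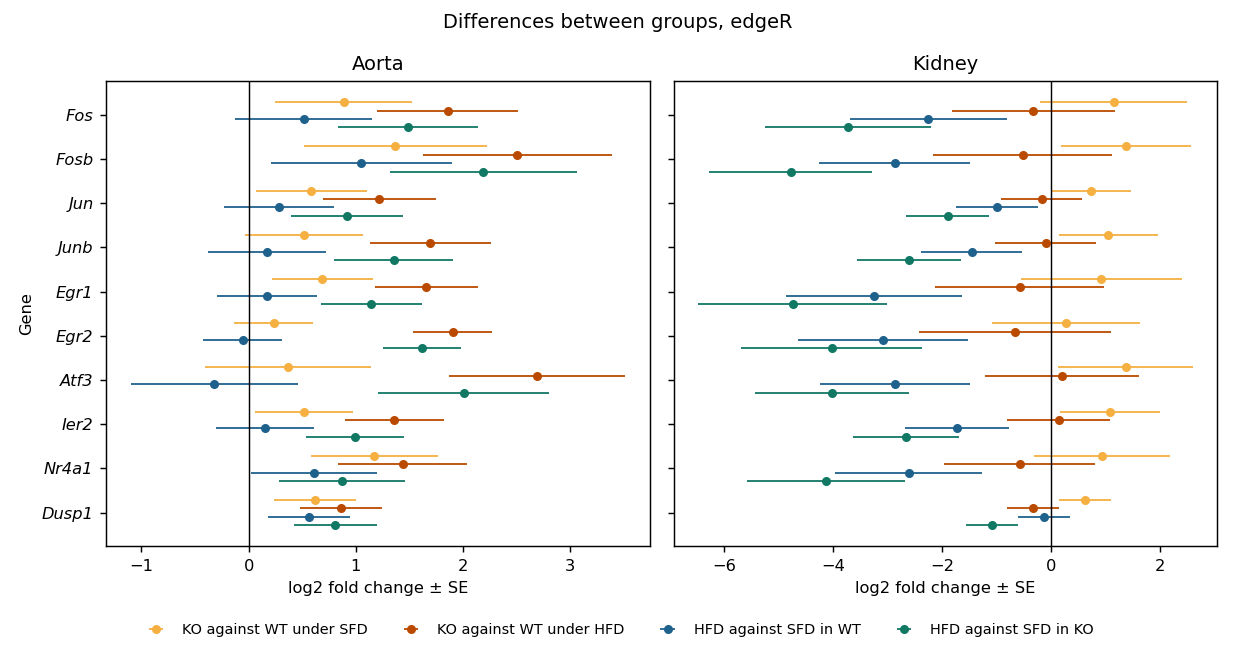
log2 fold change ± SE of each gene in 4 comparisons of groups of 5 libraries, in aorta and in kidney (edgeR; different scales on the horizontal axes). In aorta all 10 genes are above 0 for KO against WT under HFD, while in kidney all 10 are below 0 for HFD against SFD in KO, with wide errors.

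In kidneys the comparison of diets turned on the 3 high SFD libraries. In KO all 10 genes were lower on average under HFD, from -1.08 for Dusp1 to -4.78 for Fosb, and all 10 had an unadjusted p under 0.05 (19.5% of all genes, 10.4% lower), but none was called by edgeR, where 6.34% of genes were. Fosb was 0.405 FPM in a6, 0.454 in a7, 6.33 in a8, 26.0 in a9 and 0.449 in a10 of the KO SFD kidneys. In KO HFD kidneys it was 0.211 FPM in a1, 0.0517 in a2, 0.350 in a3, 0.307 in a4 and 0.285 in a5. The groups did not overlap, as for 4.07% of all genes, and its log2 fold change was -4.78 ± 1.49 (unadjusted p = 0.00505, adjusted p = 0.0666, edgeR). Outside a8 and a9 these levels rest on few reads, with 8 both in a6 (KO SFD) and in a3 (KO HFD), so the lack of overlap depends on scaling by library size. Egr1 (-4.74 ± 1.74), Nr4a1 (-4.13 ± 1.45), Atf3 (-4.03 ± 1.41), Egr2 (-4.03 ± 1.67) and Fos (-3.73 ± 1.52) followed with adjusted p = 0.109 to 0.183. The DESeq2 Wald test called 7 of the 10, all but Jun, Egr2 and Dusp1, where it called 8.93% of genes. Without a8, a9 and a17, 9 of the 10 were higher on average under HFD in KO (median 0.39), and Fosb alone was lower (-0.84).

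In WT kidneys the mean was also lower under HFD for all 10 (-0.13 to -3.24, adjusted p = 0.263 to 0.921, edgeR, with 6.71% of genes called). The libraries themselves ran the other way: of the 25 pairs of a WT HFD and a WT SFD kidney, the HFD kidney was higher in 14 (Ier2) to 20 (Egr2). Egr2 in WT SFD kidneys was 0.0333 FPM in a16, 23.1 in a17, 0 in a18, 0.114 in a19 and 0.0827 in a20. In WT HFD kidneys it was 0.589 FPM in a11, 0.232 in a12, 0.962 in a13, 0.703 in a14 and 0.280 in a15. Every HFD kidney was thus above every SFD kidney other than a17. Without a8, a9 and a17 all 10 had positive log2 fold changes under HFD in WT (median 0.67). Egr2 (3.13, adjusted p = 0.00674) and Nr4a1 (1.24, adjusted p = 0.0416) were then called by edgeR, where 6.60% of genes were called, and Egr2 rests on at most 25 reads per library here. These libraries were left out for their levels of the same genes. Leaving out a17 alone also made all 10 positive (0.21 for Ier2 to 3.12 for Egr2), but none of them was then called. The adjusted p was 0.280 for Egr2 and 0.576 for Nr4a1 in that fit (edgeR).

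Between genotypes no gene was called in kidney by edgeR or DESeq2 under either diet. Under SFD the log2 fold changes of KO against WT were 0.28 (Egr2) to 1.39 (Fosb), each with an SE above 0.47 and none with an unadjusted p under 0.05 (426 genes, 2.67% of all). The KO group holds 2 of the high libraries and the WT group 1. Leaving out a17 alone moved the 10 values to between 1.21 (Dusp1) and 6.49 (Egr2). Leaving out a9 alone turned Fosb, Egr2 and Atf3 below 0, and leaving out a8 alone moved Egr1 to 0.03. The sign of Egr2 did not turn on a9 alone, as it was below 0 in 6 of the 10 fits that left out 1 library. Under HFD, where no library was high, they were -0.66 (Egr2) to 0.20 (Atf3), again none with an unadjusted p under 0.05 (546 genes, 3.42% of all). The interaction was negative for all 10 (-0.91 to -1.91), and none had an unadjusted p under 0.05 (285 genes, 1.79% of all).

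Among the 37 further early response genes in kidney, 35 had lower means in KO kidneys under HFD. The unadjusted p was under 0.05 for 19, all of them lower under HFD, where 10.4% of all genes were lower with such a p (edgeR). By edgeR 2 of the 37 were called, in a comparison where 6.34% of all genes were, so the count of calls does not set the list apart. These were Plk2 (-1.10 ± 0.30, adjusted p = 0.0349) and Gadd45g (-2.28 ± 0.65, adjusted p = 0.0455), a serum-inducible kinase and a stress-induced protein. Plk2 was 20.2 to 50.3 FPM in the 3 high kidneys and 8.03 to 15.7 FPM in the others. The median log2 fold change of the 37 was -1.10 in KO and -0.49 in WT, where the median of all genes was 0.00 in both. In the same comparisons macrophage and neutrophil markers had a median of -0.28 in KO and 0.14 in WT. In KO, 3 of these 6 were lower and 1 higher at an unadjusted p under 0.05, and in WT 2 were higher (edgeR). Of all genes, 19.5% in KO and 19.4% in WT had such a p. Adipocyte markers had a median of 1.86 in KO and -0.41 in WT, tubular injury markers 0.75 and 0.93, and proximal tubule markers -0.18 and -0.22. The part of these cells in the differences was not tested. The upstream factors, of which 11 were tested, had medians within 0.09 of 0 in every comparison of both tissues, with 0 called.

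The spread itself was compared between diets as the distance of each library from its group median on log2 FPM (limma on all genes). In kidney it was wider under SFD for all 10 genes. The mean distance of Egr1 was 2.48 under SFD and 0.73 under HFD, a difference of 1.75 ± 0.85 (SE), and that of Fos 2.24 and 0.83 (1.41 ± 0.76). The unadjusted p was 0.0506 (Atf3) to 0.0889 (Fosb), and 1.80% of all genes were wider under SFD with an unadjusted p under 0.05. No gene was called by limma after adjustment in either tissue, where 363 genes in kidney (2.28%) and 76 in aorta had an unadjusted p under 0.05. With the distance taken from the group mean, 22 genes (0.138%) were called in kidney, among them Jun, Junb and Ier2. In aorta the spread was wider under HFD for all 10 (differences of 0.12 for Egr2 to 0.34 for Fosb, unadjusted p = 0.254 to 0.499, limma, where 0.503% of genes had an unadjusted p under 0.05 and 0.284% in that direction). The direction was thus opposite in the 2 tissues for each gene, and this difference was not tested. Without a17, a8 and a9 it turned in kidney for 7 of the 10 genes, all but Egr1, Atf3 and Dusp1. Without R-18 and R-19 it turned in aorta for Junb, Egr1, Egr2, Ier2 and Dusp1 and not for the other 5.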

How the data were processed

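RNA of 20 aortas and 20 kidneys was sequenced in paired ends, and the authors deposited raw counts per gene made with featureCounts on mm10. The study's methods name TopHat2 as the aligner, while the deposited column names and the submitters' processing notes give HISAT2 2.1.0. Counts were analysed per tissue in R 4.3.3 with edgeR 4.0.16 (filterByExpr, TMM, robust quasi-likelihood test, 4 groups in 1 fit, Benjamini-Hochberg adjustment over all genes tested, threshold 0.05), after tests on simulated data. Log2 FPM used a prior count of 2. Spread was tested with limma 3.58.1, and correlations with Fos by 100000 permutations adjusted over all genes, in place of the planned adjustment over 9 genes. Alternatives were DESeq2 1.42.0, other size factors, no filter, 2-group fits, a prior count of 0.5, and libraries left out. No replicate origin beyond the library labels was given, so p-values measure the spread between libraries. The members, lists and tests were chosen with earlier results of these data known. Named genes were the 10 members, Egfr, the 10 genes most similar to the members per tissue, and in each list the 3 most abundant and any called. Myc, Ccn1, Rhob, Errfi1, Srf, Pecam1 and single marker genes were named after their values were seen. Total counts were 1.75e+07 to 4.88e+07 per library.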

Additional observations from a re-analysis of the deposited data

Results flagged for a closer look

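In groups of 5 libraries, 8 of 80 combinations of gene, tissue and group held a library whose gap to the nearest other exceeded Dixon's 95% critical value on log2 FPM, where chance gives about 4. In WT SFD kidneys the high library was a17 in 6 of them, with 220 FPM for Jun, 271 for Junb, 23.1 for Egr2, 49.2 for Atf3, 164 for Ier2 and 189 for Nr4a1. No KO SFD kidney passed this threshold on log2 FPM, a group with 2 high libraries. In aortas, Atf3 was low in R-2 of the WT SFD group (7.60 FPM), and Ier2 was high in R-11 of the KO SFD group (232 FPM).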

How the results depend on the processing

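No paired analysis was possible because each library number of a tissue occurs in only 1 group. For single genes, 657 values kept direction and side of the threshold under settings other than leaving out 1 library, while 48 reversed, 13 newly passed and 9 no longer passed. Genes called for KO against WT under HFD in aorta were 0, but 21 without the near-identical pair, 25 by DESeq2 (1 immediate-early gene) and 0 to 2 with 1 library left out. For HFD in WT aortas they were 2, but 1 with no filter, 1 without R-18 and R-19, 0 with only the 2 groups, 9 by DESeq2 and 0 to 2 with 1 library left out. For HFD in KO aortas they were 0, but 4 by DESeq2 (1 immediate-early gene). In kidney the HFD effect in WT gave 1069 genes, but 607 with only the 2 groups, and 2 immediate-early genes without a8, a9 and a17. In KO it gave 1011 genes, but 582 without these 3, and 7 immediate-early genes by DESeq2. The kidney spread gave 0 genes, but 22 (3 immediate-early genes) from the group mean and 0 to 1 with 1 library left out. The 4 kidney genes called for correlation with Fos became 1 without the 2 farthest libraries and 2 when centred, where r of Ier2 was -0.154 and -0.272.

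Without R-18 and R-19, chosen after seeing the data, HFD in KO aortas turned to -0.00671 for Jun, -0.037 for Atf3, -0.14 for Ier2 and -0.30 for Nr4a1. The interaction turned to -0.38 for Fos, -0.74 for Fosb, -0.30 for Jun, -0.29 for Ier2, -0.92 for Nr4a1 and -0.49 for Dusp1. The aorta spread turned to 0.055 for Junb, 0.0023 for Egr1, 0.094 for Egr2, 0.14 for Ier2 and 0.030 for Dusp1. Without a8, a9 and a17, KO against WT under SFD in kidney turned to -0.22 for Jun, -0.044 for Junb and -0.015 for Ier2. HFD in WT turned to 1.64 for Fos, 0.81 for Fosb, 0.32 for Jun, 0.44 for Junb, 1.39 for Egr1, 3.13 for Egr2, 0.53 for Atf3, 0.21 for Ier2, 1.24 for Nr4a1 and 0.46 for Dusp1. HFD in KO turned to 1.16 for Fos, 0.38 for Jun, 0.40 for Junb, 0.56 for Egr1, 0.51 for Egr2, 0.39 for Atf3, 0.38 for Ier2, 0.24 for Nr4a1 and 0.022 for Dusp1. The interaction turned to 0.059 for Jun and 0.17 for Ier2. The kidney spread turned to -0.066 for Fos, -0.071 for Fosb, -0.018 for Jun, -0.0875 for Junb, -0.096 for Egr2, -0.049 for Ier2 and -0.15 for Nr4a1. The cause was not tested.

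With 1 library left out in turn, 1564 values for single genes kept their direction and side of the threshold and 36 reversed. In aorta, Atf3 for KO against WT under SFD ran from -0.026 to 0.57. HFD in WT ran from -0.15 to 0.59 for Jun, -0.18 to 0.69 for Junb, -0.073 to 0.48 for Egr1 and -0.22 to 0.21 for Egr2. The interaction ran from -0.016 to 1.86 for Fosb, -0.41 to 0.74 for Nr4a1 and -0.26 to 0.44 for Dusp1. In kidney, KO against WT under SFD ran from -0.44 to 5.07 for Fosb, -0.72 to 6.49 for Egr2 and -1.11 to 4.77 for Atf3, and without a reversal from 0.44 to 5.04 for Fos, 0.03 to 5.56 for Egr1, 0.30 to 4.78 for Nr4a1, 0.15 to 2.05 for Jun, 0.46 to 2.95 for Junb, 0.50 to 3.01 for Ier2 and 0.19 to 1.21 for Dusp1, each highest without a17. Under HFD it ran from -0.61 to 0.15 for Fos and -0.21 to 0.010 for Junb. HFD in WT ran from -2.70 to 1.63 for Fos, -3.20 to 0.81 for Fosb, -1.22 to 0.32 for Jun, -1.70 to 0.44 for Junb, -3.64 to 1.39 for Egr1, -3.41 to 3.12 for Egr2, -3.17 to 0.54 for Atf3, -1.98 to 0.21 for Ier2, -2.91 to 1.22 for Nr4a1 and -0.30 to 0.46 for Dusp1, positive in each case without a17. The interaction ran from -7.14 to 0.066 for Egr2 and -4.56 to 1.31 for Atf3.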
